A study of Mus musculus with 18 samples.

Results

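The transcription factor genes that build and maintain the retinal pigment epithelium (RPE) and the eye field were followed in RPE RNA from *rd1* mice. The group had 10 members out of 47729 genes in the count table, and they were listed by name for their known roles, with earlier results of these data known: *Otx2*, *Otx1*, *Sox9*, *Pax6*, *Lhx2*, *Rax*, *Six3*, *Six6*, *Tfec* and *Hmx1*. All 10 were among the 18958 genes with enough counts to be tested.

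RNA was profiled at P40 in 9 mice labelled *rd1*, an FVB/N line whose *Pde6b* mutation destroys the rods. In 1 eye an adeno-associated virus (AAV) carried the human *Nrf2* cDNA under the human Best1 promoter, which is active in RPE cells, and a second AAV carried GFP under the same promoter (Best1-Nrf2 eyes). The fellow eye of the same animal had only the GFP vector (control eyes), so both groups share the genotype, a subretinal injection and GFP. The main test compared the eyes of a mouse. By the study's methods, the Best1-Nrf2 eyes had a higher total AAV dose and a further capsid. Effects of dose and capsid therefore cannot be told apart from those of Nrf2. There were 9 libraries in each group. The labels call every mouse *rd1*, whereas the study's methods give fewer *rd1* pairs at this age and further pairs of wild-type CD1 mice, which together equal the number of pairs deposited. Some of the pairs may therefore be wild type, and the strain of each library was taken from its label. The summed level of 10 rod markers was 157 to 817 CPM in control eyes (median 304) and 261 to 597 CPM in Best1-Nrf2 eyes (median 429), with 5 of 9 mice higher (CPM, counts per 1000000 library counts, with libraries scaled by edgeR's TMM). Their mean log2 CPM went the other way, with medians of 3.17 and 1.51 and 8 of 9 mice lower after Best1-Nrf2, and of 8 rod markers tested 3 fell and 1 rose, against 1.13% and 3.12% of all genes. Among control eyes, the rod sum was 587 to 817 CPM in mice 1, 2, 3 and 9 and 157 to 304 CPM in the other mice. The sum of 10 cone markers was 1733 to 2258 CPM and 298 to 800 CPM in the same sets. In Best1-Nrf2 eyes these mice did not stand apart on either sum. Whether this split follows strain was not tested. RNA was taken from eyecups after the retina had been peeled off, so cells that stayed attached also contributed, and fewer cells of a type cannot be told apart from less RNA per cell.

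OTX2 and OTX1 are paired-type homeodomain proteins, and OTX2 works with MITF and SOX9 to switch on pigment and visual cycle genes in the RPE. PAX6, LHX2, RAX, SIX3 and SIX6 belong to the eye-field network that specifies the optic vesicle; after development PAX6 and LHX2 continue in several ocular cell types, and RAX, SIX3 and SIX6 are better known from neural retina. TFEC is a helix-loop-helix relative of MITF that is enriched in the RPE, and HMX1 is a homeodomain factor of the developing eye and ear.

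Promoter sequences were examined first, because NRF2 acts through antioxidant response elements whose core is TGACNNNGC. In the RefSeq annotation of GRCm38.p6, a 300-base promoter window was held for 7 of the 10 genes, in 12 windows. Searched on both strands, TGACNNNGC lay in 4 of the 12 windows, 1 each of *Lhx2*, *Pax6*, *Six3* and *Tfec*, and in 12.4% of all 32851 windows of this length. These 4 windows are printed because the delivered factor has a known element, and a window of *Otx2* is printed because it held the homeodomain letters TAATTA 3 times and TAATCC once. They are chr2:38339031-38339330 (plus strand, *Lhx2*), chr2:105682213-105682512 (plus strand, *Pax6*), chr17:85620584-85620883 (plus strand, *Six3*), chr6:16898392-16898691 (minus strand, *Tfec*) and chr14:48665060-48665359 (minus strand, *Otx2*). Capitals mark the matches, which read as the reverse complement where they lie on the other strand.
Lhx2: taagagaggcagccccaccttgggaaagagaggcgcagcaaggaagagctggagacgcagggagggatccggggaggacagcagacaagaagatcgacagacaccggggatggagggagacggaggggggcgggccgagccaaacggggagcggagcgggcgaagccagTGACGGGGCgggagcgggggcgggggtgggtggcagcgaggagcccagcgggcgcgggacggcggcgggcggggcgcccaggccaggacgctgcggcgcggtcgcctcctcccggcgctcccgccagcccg
Pax6: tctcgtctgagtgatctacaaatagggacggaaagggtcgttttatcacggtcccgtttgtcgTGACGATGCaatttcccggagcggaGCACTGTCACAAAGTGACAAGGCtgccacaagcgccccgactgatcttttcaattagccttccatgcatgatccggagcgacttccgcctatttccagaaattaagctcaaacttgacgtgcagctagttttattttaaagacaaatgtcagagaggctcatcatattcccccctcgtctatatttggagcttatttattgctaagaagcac
Six3: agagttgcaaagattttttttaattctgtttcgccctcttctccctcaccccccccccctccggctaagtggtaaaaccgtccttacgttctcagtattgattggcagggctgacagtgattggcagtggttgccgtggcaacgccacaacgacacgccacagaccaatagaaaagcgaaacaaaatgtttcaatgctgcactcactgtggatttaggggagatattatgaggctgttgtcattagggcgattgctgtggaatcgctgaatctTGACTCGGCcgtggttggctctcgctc
Tfec: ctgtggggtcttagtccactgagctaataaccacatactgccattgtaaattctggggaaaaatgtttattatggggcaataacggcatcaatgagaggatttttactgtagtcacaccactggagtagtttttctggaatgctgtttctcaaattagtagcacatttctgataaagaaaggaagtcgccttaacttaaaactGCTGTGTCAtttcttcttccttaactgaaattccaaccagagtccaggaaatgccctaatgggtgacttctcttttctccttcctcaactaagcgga
Otx2: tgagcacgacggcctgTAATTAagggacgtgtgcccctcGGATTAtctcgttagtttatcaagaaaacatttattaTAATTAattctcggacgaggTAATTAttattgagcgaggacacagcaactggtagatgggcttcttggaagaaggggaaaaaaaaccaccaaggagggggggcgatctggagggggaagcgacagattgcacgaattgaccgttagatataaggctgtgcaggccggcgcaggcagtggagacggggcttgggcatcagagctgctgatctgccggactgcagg

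The *Pax6* window held TGACNNNGC 3 times, at 187, 162 and 148 bases before the start site, and the middle match shared bases with a SOX-type ACAAAG. At least 3 matches of TGACNNNGC were present in 0.0791% of all windows. TAATTA was present in 5.29% of all windows and TAATCC in 7.06%, and a second *Otx2* window also held TAATTA. The MITF-type letters CACGTG and TCATGTG were in 0 of the 12 windows, against 7.15% and 3.77% of all windows. ACAAAG was in 1 of the 12 and in 18.7% of all windows. These matches are letters in a window, and no binding was measured.

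The targeted gene followed the labels. Counts assigned to *Nfe2l2*, the gene of NRF2, ranged from 76.7 to 134 CPM in control eyes and from 275 to 704 CPM in Best1-Nrf2 eyes. Its log2 fold change was 2.29 with an SE of 0.21, and 9 of 9 mice were higher (adjusted p = 6.2e-05, edgeR quasi-likelihood test with Benjamini-Hochberg adjustment). Reads of the human cDNA and of the mouse gene cannot be told apart in this table. Library totals ran from 18956748 to 49598700 counts. All 16 RPE markers had counts in every eye, with a summed level of 13023 to 71697 CPM. Control mouse 8 was the smallest library and had the lowest RPE marker score of the control eyes (mean log2 CPM of 16 markers, 8.12 against a median of 9.56), and inner retina neuron markers scored highest in the Best1-Nrf2 eye of mouse 6 (6.51 against a median of 1.54). Results that rest on these eyes are given with and without both mice.

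None of the 10 factors passed the test for a difference between the eyes. With edgeR, 0 of 10 passed an adjusted p of 0.05, against 4.25% of all genes tested (806 of 18958), and 0 of 10 reached an unadjusted p of 0.05, against 12.8% of all genes (7.55% higher and 5.29% lower). DESeq2 and limma voom likewise called 0 of 10, while they called 1478 and 1426 of the 18958 genes. The median log2 fold change of the 10 was -0.04, and that of all genes -0.03. Control and Best1-Nrf2 values overlapped for every member, whereas 1.17% of all genes had groups that did not overlap (1.05% higher and 0.116% lower). The precision was that of an ordinary gene, with a median standard error of 0.29 for the members and 0.29 for all genes. The 95% interval of the fold change lay within 2-fold in either direction for 7 of 10 members (70%) and for 51.5% of all genes, and it reached past 2-fold for *Six6*, *Tfec* and *Hmx1*.

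**Figure D1:**
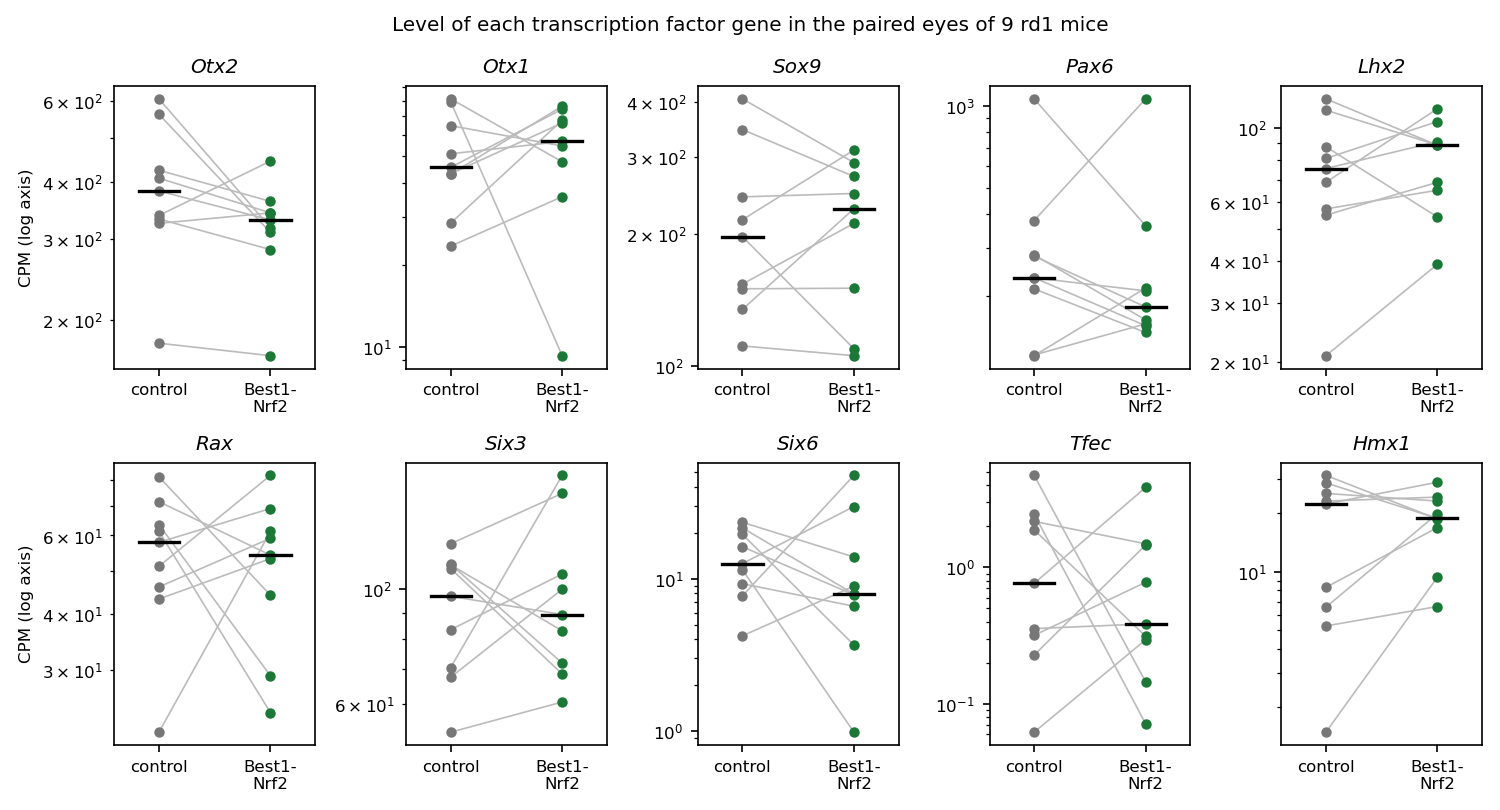
Level of each of the 10 genes in CPM on log axes, with 1 point per eye, a grey line joining the eyes of a mouse and a black bar at the group median. Lines run in both directions for every gene, and the groups overlap in every panel.

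*Otx2* (ENSMUSG00000021848, GRCm38 chr14:48657677-48673819, minus strand), the homeodomain activator of RPE pigment genes, was the highest of the 10 per base of transcript. It ranged from 178 to 607 CPM in control eyes with a median of 382, and from 167 to 444 CPM in Best1-Nrf2 eyes with a median of 331. The lowest value of both groups came from mouse 8, and the control eyes of mice 1 and 9 stood highest. The log2 fold change was -0.26 (SE 0.17, 95% interval -0.65 to 0.13, adjusted p = 0.624), and 7 of 9 mice had the lower value in the Best1-Nrf2 eye. It was -0.29 without mice 6 and 8. This was the smallest standard error among the 10.

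*Otx1*, the paralog of *Otx2*, was measured at 23.5 to 81.2 CPM in control eyes (median 45.6) and at 9.31 to 76.3 CPM in Best1-Nrf2 eyes (median 56.7). A single eye set the lower end, since mouse 6 had 9.31 CPM in its Best1-Nrf2 eye and the next lowest had 35.6 CPM. On the log2 scale the change was 0.09 (SE 0.37, 95% interval -0.77 to 0.96, adjusted p = 0.965, higher in 6 of 9 mice), and it was 0.36 without mice 6 and 8 (adjusted p = 0.457).

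*Sox9*, the high-mobility-group factor that acts with OTX2 on visual cycle genes, was second per base of transcript. Control eyes had 111 to 408 CPM (median 197) and Best1-Nrf2 eyes 106 to 311 CPM (median 229). High and low eyes were found in both groups, and mouse 6 had 109 CPM in its Best1-Nrf2 eye against 197 CPM in its control eye. The estimated log2 fold change was 0.00 (SE 0.19, 95% interval -0.43 to 0.43, adjusted p = 0.999), with 5 of 9 mice higher. Without mice 6 and 8 it was 0.14.

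*Tfec*, the MITF relative, was barely present. It had from 0.06 to 4.70 CPM in control eyes (median 0.76) and from 0.07 to 3.84 CPM in Best1-Nrf2 eyes (median 0.39), and the lowest library of each group held 3 counts. The spread within each group covered more than the distance between the groups. *Tfec* had a log2 fold change of -0.28 (SE 1.00, 95% interval -2.59 to 2.03, adjusted p = 0.961), an interval that holds both a 4-fold rise and a 4-fold fall, and 5 of 9 mice were higher. The estimate was -0.16 without mice 6 and 8.

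*Pax6* (ENSMUSG00000027168, GRCm38 chr2:105668900-105697360, plus strand), the paired-domain regulator of the eye field, had 2 eyes far above the rest. Control eyes ranged from 121 to 1062 CPM with a median of 233, and Best1-Nrf2 eyes from 147 to 1062 CPM with a median of 182. The value of 1062 CPM was reached in the Best1-Nrf2 eye of mouse 3 and in the control eye of mouse 8, and the next highest eyes of the groups, those of the same animals, had 363 and 379 CPM. Both eyes of mice 3 and 8 thus stood above the other 14 eyes. With all mice, *Pax6* had a log2 fold change of -0.18 (SE 0.29, 95% interval -0.85 to 0.48, adjusted p = 0.895) and 6 of 9 mice were lower. Leaving out mice 3 and 8 gave -0.22, and leaving out mice 6 and 8 gave 0.079. Ciliary and iris epithelium, in which *Pax6* is known to be active, gave no common pattern over these eyes. The summed level of its 5 markers was 195 CPM in the Best1-Nrf2 eye of mouse 3, the highest of all, and 12.9 CPM in the control eye of mouse 8, the lowest of the control eyes. Its part in the *Pax6* levels was not tested.

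*Lhx2*, the LIM-homeodomain factor, ranged from 20.9 to 122 CPM in control eyes (median 75.7) and from 39.2 to 114 CPM in Best1-Nrf2 eyes (median 88.8). Mouse 8 was lowest in both groups. The estimate for the change was 0.14 in log2 (SE 0.19, 95% interval -0.29 to 0.57, adjusted p = 0.861), with 6 of 9 mice higher. It became 0.15 when mice 6 and 8 were left out, and 0.0013 when mice 3 and 8 were.

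*Rax*, the retina and anterior neural fold homeobox gene, was measured at 21.8 to 81.2 CPM (median 57.9) in control eyes and 24.1 to 81.8 CPM (median 54.2) in Best1-Nrf2 eyes. Control mouse 8 was lowest, and the other control eyes began at 43.2 CPM. Its log2 fold change was -0.08 (SE 0.28, 95% interval -0.73 to 0.58, adjusted p = 0.962) although 5 of 9 mice were higher, and -0.36 without mice 6 and 8 (adjusted p = 0.530). Antisense *Raxos1* covers 27.4% of the exon bases of *Rax*, and as the counting is not stated to use strand, their reads cannot be told apart.

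*Six3*, a homeodomain repressor of the anterior forebrain and eye, varied least between the eyes of a mouse after *Otx2*, *Sox9* and *Lhx2*. Control eyes had 53.1 to 122 CPM (median 96.7), and Best1-Nrf2 eyes had 60.6 to 165 CPM (median 89.2). The Best1-Nrf2 eyes of mice 6 and 3, at 165 and 152 CPM, were the only 2 of 9 above the control range. The log2 fold change was 0.09 (SE 0.20, 95% interval -0.38 to 0.56, adjusted p = 0.938), with 5 of 9 mice higher, and leaving out mouse 6 turned it to -0.052. The antisense *Six3os1*, with 49.6% as many counts as *Six3*, had a log2 fold change of -0.24 (adjusted p = 0.718).

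*Six6*, the close relative of *Six3*, was lower and far more scattered. Control eyes had 4.22 to 23.4 CPM (median 12.6) and Best1-Nrf2 eyes 0.98 to 47.6 CPM (median 7.93), and the Best1-Nrf2 range enclosed the control range at both ends. The high end was mouse 6 and the low end mouse 5. *Six6* had a log2 fold change of -0.54 (SE 0.58, 95% interval -1.89 to 0.80, adjusted p = 0.818), with 6 of 9 mice lower, and of -1.19 without mice 6 and 8 (adjusted p = 0.229). *4930447C04Rik*, a gene on the opposite strand that covers 4.79% of the *Six6* exon bases, had a log2 fold change of -2.04 (adjusted p = 0.170). It had 45.6% as many counts as *Six6*. As the counting is not stated to use strand, reads from the shared bases cannot be told apart.

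*Hmx1*, the eye and ear homeobox gene, had 1.48 to 31.5 CPM in control eyes (median 22.4) and 6.61 to 29.0 CPM in Best1-Nrf2 eyes (median 18.9). Control mouse 8 was again the lowest, and it gave the largest rise between eyes of a mouse, 2.62 on the log2 scale. Over all mice the log2 fold change was 0.46 (SE 0.33, 95% interval -0.29 to 1.22, adjusted p = 0.658), with 6 of 9 mice higher, and it was 0.35 without mice 6 and 8, 0.23 without mouse 8 alone and 0.037 without mice 3 and 8.

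The levels of the 10 factors were compared with each other after division by exon length. By the control median, *Otx2* led with 90.6 CPM per kilobase, followed by *Sox9* with 47.7. *Pax6* (19.96), *Six3* (17.8), *Lhx2* (17.2) and *Hmx1* (14.1) formed a middle group. *Rax* (9.91), *Otx1* (8.40) and *Six6* (3.13) came next, and *Tfec* was last with 0.14 CPM per kilobase. In control eyes the ranges of neighbours in this order overlapped in 8 of 9 cases, the exception being *Six6* and *Tfec*. In Best1-Nrf2 eyes the ranges of these 2 genes overlapped as well, at 0.246 to 11.9 and 0.0128 to 0.686 CPM per kilobase.

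**Figure D2:**
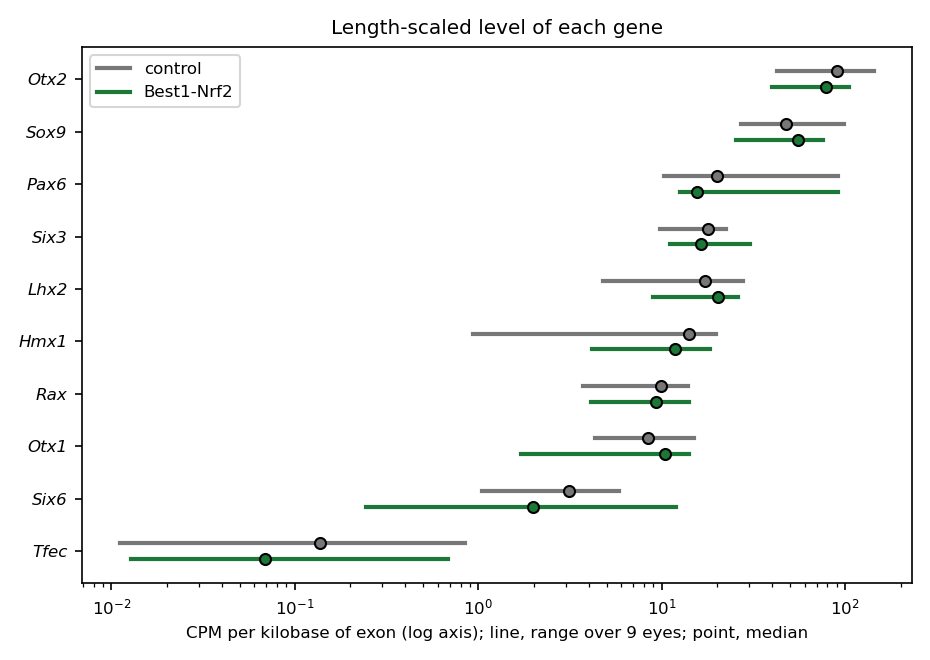
CPM per kilobase of exon on a log axis, with a line for the range over 9 eyes and a point at the median for control (grey) and Best1-Nrf2 (green) eyes. *Otx2* and *Sox9* have the highest medians in both groups and *Tfec* the lowest, and the Best1-Nrf2 range of *Tfec* reaches that of *Six6*.

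The spread between mice was large beside the mean differences. The SD of the difference in log2 CPM between the eyes of a mouse was 0.42 for *Otx2* (n = 9 mice), 0.52 for *Sox9* and 0.54 for *Lhx2*. It was 1.90 for *Six6* and 2.70 for *Tfec*. Mice did not move as one, as the number of members higher in the Best1-Nrf2 eye ran from 3 of 10 in mice 6 and 7 to 9 of 10 in mouse 3. In mouse 6, *Otx1* differed by -3.08, *Sox9* by -0.85 and *Lhx2* by -0.70, while *Six6* differed by 2.62 and *Six3* by 1.22. The inner retina neuron score of the same mouse was 4.48 higher in the Best1-Nrf2 eye, and the Müller glia score 1.93 higher. In mouse 2, the inner retina neuron score was 3.23 higher and *Six6* differed by -0.75. The part of neural retina in these levels was not tested.

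**Figure D3:**
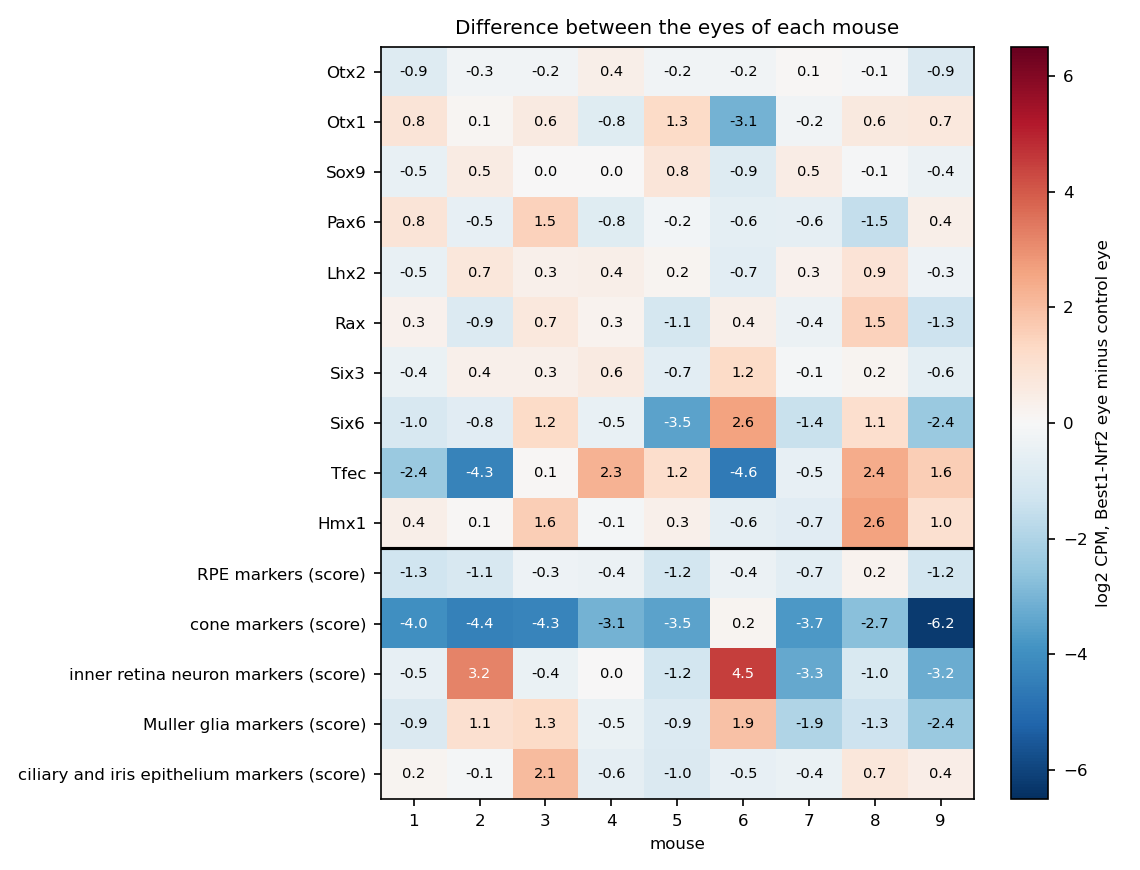
Difference in log2 CPM between the Best1-Nrf2 and the control eye of each mouse for the 10 genes (above the black line) and for the mean of 5 marker lists (below it), with red for higher in the Best1-Nrf2 eye. Mouse 6 combines a low *Otx1* with a high *Six6* and a high inner retina neuron score.

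Some members varied together from eye to eye. Over the 18 libraries, with group means removed, *Sox9* and *Lhx2* had a Pearson r of 0.85 (Spearman rho 0.86, and r = 0.86 over 14 libraries without mice 6 and 8). *Six3* and *Six6* had r = 0.76 (rho 0.74, 0.73 without those mice), and *Rax* and *Six6* had r = 0.71 (rho 0.65, 0.74 without). *Sox9* had an r of 0.02 with *Six3* and of -0.15 with *Six6*. Opposite variation was seen for *Pax6* and *Lhx2* (r = -0.74, rho -0.69, -0.66 without) and for *Otx1* and *Six3* (r = -0.73, rho -0.72, -0.82 without). The r of 0.84 between *Otx2* and *Lhx2* was 0.56 without mice 6 and 8. These values describe 18 eyes that share depth and tissue purity, for the 45 pairs of members, and *Six3*, *Six6*, *Rax*, *Otx2*, *Pax6*, *Lhx2* and *Hmx1* also have genes on the opposite strand.

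By the same measure, the genes most like each factor among 11800 candidates were *Cpt2*, *Dhdh* and *Csad* for *Otx2* (r = 0.95, 0.94 and 0.94), and *Slc20a2* and *Cpt1a* for *Sox9* (r = 0.98 each). *Cpt1a* and *Cpt2* are enzymes of fatty acid oxidation. The closest to *Lhx2* were *Prkcq*, *Smpd1* and *Slc22a17* (r = 0.97, 0.96 and 0.96), and to *Pax6* *Pdcd4*, *Mitd1* and *Gps2* (r = 0.96, 0.95 and 0.94). *Otx1* was nearest to *Zfp185*, *Tap2* and *Rab7b* (r = 0.95, 0.94 and 0.93), and *Hmx1* to *Colgalt2*, *Lrrn1* and *Podxl2* (r = 0.95, 0.93 and 0.91). The values were lower for *Six3*, with *Rtl8a*, *Casc4* and *Unc80* (r = 0.92, 0.90 and 0.90), for *Six6*, with *Mlc1*, *Pnmal2* and *Dzank1* (r = 0.87, 0.87 and 0.86), and for *Rax*, with *Prex2*, *Gmpr2* and *Aldoc* (r = 0.87, 0.87 and 0.86). Each is the top of a long list ranked over 18 eyes.

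Relatives and partners of the 10 factors were read from lists of other genes. Of the MITF and TFE genes, which share the helix-loop-helix domain of *Tfec*, 0 of 3 passed the edgeR test in either direction, against 4.25% of all genes, and 0 of 3 reached an unadjusted p of 0.05, against 12.8%. *Mitf*, the master regulator of pigment cells, had medians of 72.3 CPM (control) and 66.7 CPM (Best1-Nrf2) (log2 fold change -0.25, SE 0.19, adjusted p = 0.697). Of 27 further eye-field and optic cup factors, 21 were tested, and 1 rose and 0 fell, with a median log2 fold change of 0.01, while 3.12% of all genes rose. The one that rose was *Foxd1*, a forkhead factor of the temporal optic cup and of periocular stroma, from 0.97 to 6.10 CPM in control eyes (median 4.09) to 2.95 to 14.5 CPM in Best1-Nrf2 eyes (median 7.46). Its groups overlapped, but it was higher in 9 of 9 mice (log2 fold change 1.17, SE 0.26, adjusted p = 0.0252). Leaving out mouse 2, 5, 7, 8 or 9 ended this call, with an adjusted p of up to 0.0709 and log2 fold changes between 1.12 and 1.21. It was also lost without mice 6 and 8 (1.17, adjusted p = 0.0543) and with a covariate for RPE markers (1.63, adjusted p = 0.123) or for rod and cone markers (1.25, adjusted p = 0.307). The RPE covariate fit called 208 of all genes, and the rod and cone fit 35, without *Nfe2l2*. *Foxd1* passed with DESeq2 (adjusted p = 3.4e-04) and with voom (0.0106). Fibroblast and sclera markers moved with it, as their mean log2 CPM had medians of 4.84 and 5.34 and 9 of 9 mice were higher, with 1 of 7 called higher and a median log2 fold change of 0.57. Their part in the *Foxd1* values was not tested.

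Among 9 photoreceptor transcription factors, 7 were tested, and 0 rose and 1 fell, while 1.13% of all genes fell, and 3 of 7 were lower at an unadjusted p of 0.05, against 5.29% of all genes. The one that fell was *Crx*, the OTX-family gene of photoreceptors. Control eyes had 4.67 to 61.8 CPM (median 8.12) and Best1-Nrf2 eyes 0.31 to 20.3 CPM (median 0.87), lower in 8 of 9 mice (log2 fold change -3.38, SE 0.77, adjusted p = 0.0258). The call was lost when mouse 1, 3, 4, 5, 7 or 9 was left out (adjusted p up to 0.0793), with log2 fold changes between -3.53 and -3.00. It was kept without mice 6 and 8 (-4.15, adjusted p = 0.0018), with DESeq2 (adjusted p = 3.4e-08) and with voom (9.2e-04). With a covariate for rod and cone markers, in a fit that called 35 genes and not *Nfe2l2*, the direction turned (log2 fold change 0.70, adjusted p = 0.726). With one for RPE markers *Crx* was at -2.24 (adjusted p = 0.364). Cone markers moved with it: 9 of 10 fell and 0 rose, while 1.13% of all genes fell, and their summed level ran from 298 to 2258 CPM in control eyes but from 54.1 to 534 CPM in their fellows. Their part in the *Crx* values was not tested. Of 21 inner retina transcription factors, 10 were tested, and 0 passed with edgeR, against 4.25% of all genes (1 of 10 was lower at an unadjusted p of 0.05, against 5.29% of all genes). *Otx2* is also a gene of photoreceptors and bipolar cells. The cone score (mean log2 CPM of the 10 markers) differed between the eyes by -6.21 to 0.16, with the ends in mice 9 and 6, where *Otx2* differed by -0.93 and -0.22. The part of photoreceptors in the *Otx2* values was not tested.

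Several genes known as RPE targets of OTX2, MITF, SOX9 or LHX2 fell. All 16 were tested, and 6 fell and 0 rose, with a median log2 fold change of -0.42, while 1.13% of all genes fell. *Rpe65*, the isomerase of the visual cycle, had 810 to 3429 CPM in control eyes (median 2201) and 172 to 718 CPM in Best1-Nrf2 eyes (median 239). The groups did not overlap, and the log2 fold change was -2.81 (SE 0.31, adjusted p = 2.4e-04, lower in 9 of 9 mice). *Lrat*, which esterifies retinol, was also lower (log2 fold change -1.78, SE 0.25, adjusted p = 0.0014), and *Rlbp1*, the retinal-binding protein (log2 fold change -1.16, SE 0.22, adjusted p = 0.0095), as well. *Rgr*, a light-driven retinal isomerase (log2 fold change -1.38, adjusted p = 0.0158), *Rdh5*, a retinol dehydrogenase (-1.04, adjusted p = 0.0389), and *Gpr143*, a receptor of melanosomes (-0.74, adjusted p = 0.0473), also passed.

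Of these 6 calls, those of *Rpe65*, *Lrat* and *Rlbp1* held with every mouse left out in turn. *Rgr* lost its call without mouse 1, 2 or 7 (adjusted p up to 0.0586), *Rdh5* without any mouse but 6 and 8 (up to 0.118), and *Gpr143* without any mouse but 4 and 8 (up to 0.159). With a mouse left out, the log2 fold change stayed between -1.54 and -1.26 for *Rgr*, between -1.17 and -0.92 for *Rdh5* and between -0.84 and -0.63 for *Gpr143*. Without mice 6 and 8 all 6 passed, with log2 fold changes from -3.13 (*Rpe65*, adjusted p = 1.6e-04) to -0.87 (*Gpr143*, 0.0329). *Gpr143* also lost its call with RLE scaling (log2 fold change -0.75, adjusted p = 0.0552), upper-quartile scaling (-0.79, 0.0525) and no count filter (-0.72, 0.0898), and *Rdh5* with upper-quartile scaling (-1.08, 0.0504). With a covariate for inner retina neuron markers, *Rdh5* (-1.02, 0.0526) and *Gpr143* (-0.75, 0.0615) lost theirs as well, at almost the same log2 fold changes. RPE marker levels moved with them, since the mean log2 CPM of 16 RPE markers, which include *Rpe65*, *Lrat*, *Rgr* and *Rdh5*, had a median of 9.56 in control and 8.68 in Best1-Nrf2 eyes. With that score as a covariate *Rpe65* passed (adjusted p = 0.0309) and the other 5 did not, in a fit that called 208 of 18958 genes. The log2 fold changes were then -1.74 for *Rpe65*, -0.81 for *Lrat*, -0.54 for *Rgr*, -0.43 for *Rlbp1*, -0.21 for *Rdh5* and -0.071 for *Gpr143*. With the rod and cone markers as a covariate 0 of the 6 passed, in a fit that called 35 genes and in which *Nfe2l2* was not called either. There *Rpe65* was at -1.48, *Lrat* at -1.01, *Rlbp1* at -0.34, *Rgr* at -0.32, *Gpr143* at -0.22 and *Rdh5* at -0.16. Macrophage and microglia markers differed in the same eyes, as 6 of 11 rose and 0 fell, while 3.12% of all genes rose. Their summed level ran from 127 to 480 CPM in control eyes (median 205) and from 117 to 496 CPM in Best1-Nrf2 eyes (median 355), and their part in the target gene levels was not tested. *Best1*, whose promoter drove both vectors and which is an OTX2 and MITF target, was among the 10 without a call: its median was 1.31 CPM in control eyes and 2.65 CPM with Best1-Nrf2, with 9 of 9 mice higher (log2 fold change 0.97, SE 0.25, adjusted p = 0.0555), and it passed with DESeq2 (adjusted p = 4.4e-04), with voom (0.0155), under the minimum of 10 counts per library (0.0188) and without mouse 6 (0.0451).

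**Figure D4:**
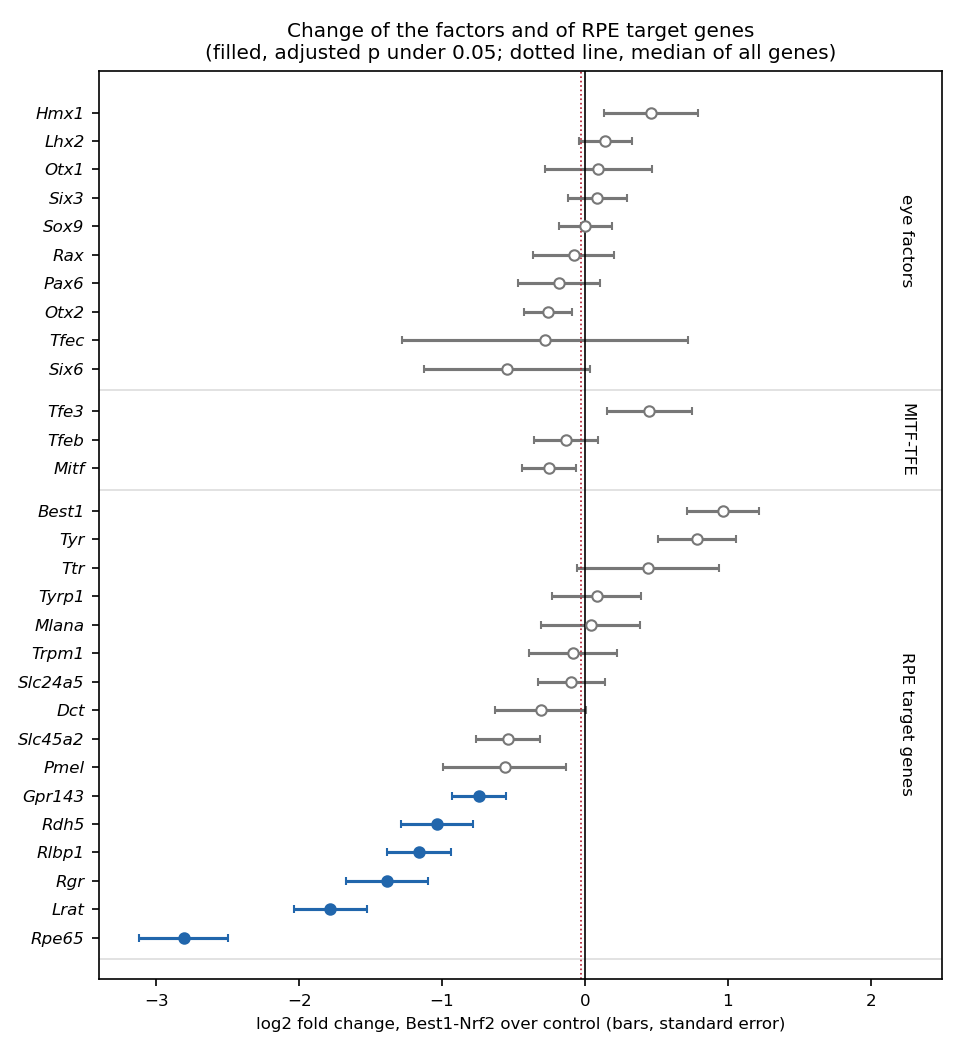
Log2 fold change of Best1-Nrf2 over control eyes with its standard error for the 10 factors, 3 MITF-TFE genes and 16 RPE target genes. Filled points passed an adjusted p of 0.05, and the dotted line is the median of all genes. The 10 factors are open points around 0, and the 6 filled points, from *Gpr143* to *Rpe65*, lie to the left.

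The levels of the targets relative to *Otx2* followed these changes. *Rpe65* exceeded *Otx2* by 1.90 to 2.65 in log2 CPM in control eyes (median 2.28), and the difference was -1.11 to 0.98 in Best1-Nrf2 eyes (median -0.38), lower in 9 of 9 mice. *Rlbp1* exceeded *Otx2* by 2.25 to 2.97 in control and by 1.08 to 2.13 in Best1-Nrf2 eyes, lower in 9 of 9 mice. *Best1* moved the other way, from -8.83 to -6.98 in control eyes and from -7.36 to -5.49 in Best1-Nrf2 eyes, higher in 9 of 9 mice. These differences are not scaled by gene length and were not tested.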

How the data were processed

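RNA sequencing of amplified poly(A) RNA from 18 eyes was analysed. The authors aligned reads to mm10 with STAR and also used featureCounts and Salmon (version 0.8.1 in the submitters' processing notes). The deposited table holds expected counts, rounded to whole numbers and unscaled. That unit was inferred from the values, since the sources used here do not state which counter made it. Sequencing used separate runs that are not assigned to libraries, so run could not be a term. No molecular identifiers are described, and precision from counts covers counting error only. Symbols were found for 47224 of 47729 IDs, and coordinates come from GENCODE M21 on GRCm38.

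In R 4.3.3, the table was filtered with filterByExpr, scaled by TMM and tested over all 18958 genes with the quasi-likelihood test of edgeR 4.0.16, with mouse as a block. P values were adjusted by Benjamini-Hochberg over all genes, with a threshold of 0.05. Log2 CPM used a prior count of 2. Standard errors came from the F statistic and intervals from 8 degrees of freedom. The mouse numbers in the labels pair the eyes of an animal. Correlations between eyes of a mouse after removal of group means had a median of -0.00095 (range -0.37 to 0.64). No 2 libraries of a group were duplicates.

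Alternatives were a fit without the block, RLE and upper-quartile scaling, DESeq2 1.42.0, voom of limma 3.58.1 with sample weights, an adjusted p threshold of 0.1, no count filter, a minimum of 10 counts in every library, marker covariates, leaving out each mouse, and leaving out mice 6 and 8. Leaving out mice 3 and 8 was chosen after the data were seen. On simulated data, edgeR recovered 50% of planted 2-fold and 97% of planted 4-fold changes, with 4.55% false calls. False calls were 16.0% with DESeq2 and 4.43% with voom. The simulation gave every gene the same dispersion, so these rates need not hold for members with a wide spread, such as *Six6* and *Tfec*. The 10 genes and all lists were chosen with earlier results of these data known. Named were the 10 genes, *Nfe2l2*, every gene called in the lists of transcription factors and RPE targets, *Mitf*, *Crx*, *Rpe65* and *Best1*, and the 3 genes most like each factor whose mean log2 CPM was 2 or more. Some genes that this rule names are not reported here. Antisense and overlapping genes were named after their values were seen. A protein comparison was not done here.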

Additional observations from a re-analysis of the deposited data

Results flagged for a closer look

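In 22 groups of 9 eyes, 6 held a value farther from the rest than Dixon's 95% critical value for 9 values allows, where chance gives about 1 in 20 groups. The values are log2 CPM.

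The control eye of mouse 8 accounted for 3 of them. *Lhx2* was lowest there at 4.39 (next 5.78), *Rax* was lowest at 4.45 (next 5.44), and *Nfe2l2* was highest at 7.06 (next 6.60), still below all Best1-Nrf2 eyes. This library was also the smallest. The Best1-Nrf2 eye of the same mouse had the lowest *Otx2*, 7.39 against the next value of 8.15.

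*Otx1* was lowest in the Best1-Nrf2 eye of mouse 6 at 3.23 (next 5.16), and *Pax6* was highest in the Best1-Nrf2 eye of mouse 3 at 10.05 (next 8.50).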

How the results depend on the processing

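None of the 10 factors was called under any of the 22 alternatives. Many fold changes reversed under some of them, most with the marker covariates, and the cause was not tested. The cone score was lower in the Best1-Nrf2 eye of every mouse except mouse 6, and the RPE score in every mouse except mouse 8. The fits with these covariates therefore cannot cleanly separate the covariate from the treatment. With a covariate for rod and cone markers, log2 fold changes were 0.12 for *Otx2*, -2.005 for *Otx1*, -0.37 for *Sox9*, -0.034 for *Lhx2*, 0.93 for *Rax*, 2.17 for *Six6*, -0.13 for *Hmx1*, 0.22 for *Mitf* and 0.70 for *Crx*, which reversed, and -2.87 for *Tfec*, 1.03 for *Six3* and -0.98 for *Pax6*, which did not. *Nfe2l2* was 1.87 and lost its call (adjusted p = 0.109). With a covariate for RPE markers they were 0.082 for *Otx2*, -0.51 for *Otx1*, -0.13 for *Sox9*, 0.95 for *Rax*, 1.32 for *Six6*, 1.03 for *Tfec* and 0.24 for *Mitf*, which reversed, and 1.05 for *Hmx1*, -0.79 for *Pax6*, 0.61 for *Six3* and 0.45 for *Lhx2*, which did not. The inner retina neuron covariate gave -0.050 for *Otx1*, -0.011 for *Sox9* and -0.73 for *Tfec*. An unadjusted p of 0.05 was reached by *Otx1*, *Six3* and *Six6* with the rod and cone covariate (18.1% of all genes), by *Rax* with the RPE covariate (17.3%) and by *Six6* without mice 6 and 8 (17.5%).

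The fit with mouse as replicate block was the main one. Without the replicate block, 742 genes were called in place of 806, *Sox9* was -0.025 and *Six6* 0.013. *Hmx1* was 0.13, *Lhx2* 0.068 and *Tfec* -0.57 in that fit. *Foxd1* (1.15, adjusted p = 0.0573) and *Crx* (-2.35, adjusted p = 0.154) lost their calls and *Best1* gained one (adjusted p = 0.0338).

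*Sox9* was -0.041 with upper-quartile scaling and -0.016 with at least 10 counts in every library, where *Tfec* was not tested. With voom, *Six3* was -0.046, *Pax6* -0.0061, *Hmx1* 0.18, *Otx1* 0.19 and *Rax* -0.18. Without mice 6 and 8, *Pax6* was 0.079 and *Six3* -0.086. Without mice 3 and 8, *Otx1* was -0.074. When each mouse was left out in turn, *Otx1* ranged from -0.059 to 0.40, *Sox9* from -0.090 to 0.12, *Rax* from -0.26 to 0.084, *Six3* from -0.052 to 0.20 and *Tfec* from -0.73 to 0.25. The others kept their sign, *Otx2* from -0.34 to -0.13 (without mouse 1), *Pax6* from -0.35 to -0.0086 (without mouse 8), *Lhx2* from 0.051 (without mouse 8) to 0.27, *Six6* from -0.90 to -0.20 (without mouse 5) and *Hmx1* from 0.23 (without mouse 8) to 0.62.

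The count of all genes called was 1478 with DESeq2, 1426 with voom, 35 with the rod and cone covariate, 208 with the RPE covariate, and 540 to 1046 with a mouse left out. *Tfec* was counted least, with as few as 3 counts in a library, and its interval was the widest of the 10.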
